A study of Mus musculus with 4 samples.

Results

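Genes that bring fatty acids into cells and burn them were followed at postnatal day 10 in inguinal mammary glands, taken whole from Mt1-mmp knockout mice and wild-type littermates. Members were chosen by name as genes of fatty acid uptake, activation, and mitochondrial and peroxisomal oxidation, and each was read from its brightest probe set that belongs to a single gene. Of the 36 listed members 33 had such a probe set, among 17097 genes on the array. The other 3 (Acsl1, Hadha and Etfb) were not analysed here, and Slc27a3 lay below the brightness limit, which left 32 members tested.

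The knockout group held 2 samples with the genotype Mt1-mmp(-/-), a global loss of the gene also called Mmp14, and the wild-type group held 2 samples with Mt1-mmp(+/+). The background of both groups was outbred Swiss Black, every mouse was 10 days old, and the labels name no treatment. Each sample was called a biological replicate and was read on 1 Affymetrix array. The whole gland was used, so epithelium, fat, vessels and any neighbouring tissue all contributed RNA, and fewer cells of a type cannot be told apart from less RNA per cell.

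Fatty acids reach fat and gland cells in several steps. Lipoprotein lipase frees them from circulating lipoproteins, membrane proteins such as CD36 and the FATP family help them enter the cell, and small FABP proteins carry them through the cytoplasm. Acyl-CoA synthetases trap them as acyl-CoA, the carnitine shuttle moves long chains into mitochondria, and a repeating spiral of reactions shortens them and hands electrons to the respiratory chain. Peroxisomes run a related spiral on very long and unusual chains. Nuclear receptors of the PPAR family, which bind fatty acids, switch on many of these genes in fat, muscle and liver.

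Most members were lower in the knockout glands by a small amount, and 1 transporter gene stood far on the other side. Of the 32 tested members 26 had a lower mean and 6 a higher mean in the knockout, with a median difference of -0.36 on the log2 scale, beside -0.02 over all 11078 genes tested. Values of both knockout arrays lay below both wild-type arrays for 19 members and above them for 3, namely Slc27a1, Ehhadh and Pdk4. Over all genes tested such separation was seen downward for 32.5% and upward for 26.3%. No member passed limma's test at a Benjamini-Hochberg adjusted p of 0.05, and neither did any other gene (0% of those tested), so all differences below are values that did not pass. At an unadjusted limma p under 0.05 there were 2 members higher (9.69% of all genes) and 6 lower (12.1%).

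The 2 knockout arrays did not carry the same amount of this difference. Relative to the wild-type mean, the median over members was -0.10 in the first knockout array (replicate 1) and -0.53 in the second (replicate 2). In knockout replicate 2 the value was below both wild-type arrays for 25 of 32 members, beside 50.8% of all genes, and in knockout replicate 1 for 21 members, beside 43.7%. Skeletal muscle markers stood apart in knockout replicate 2: their summed linear signal was 904 and 59000 in knockout replicates 1 and 2, against 1380 and 4420 in wild-type replicates 1 and 2. All 17 muscle markers on the array were above both wild-type arrays there, beside 4289 of all 11078 genes. The brightness limit was reached by 7 and 17 of them in the knockout arrays, against 8 and 13 in the wild-type arrays. Epidermis and hair follicle markers stood apart in the other knockout sample, with sums of 13500 and 835 in the knockout arrays and 1170 and 3370 in the wild-type arrays. Other marker lists differed as well, not always to the same extent in the 2 knockout arrays. Macrophage markers had a lower mean for 11 of 11 tested (median -0.38) and blood endothelial markers for 11 of 12 (-0.22). Medians in knockout replicates 1 and 2 were -0.57 and -0.24 for macrophage and -0.42 and -0.07 for endothelial markers. Luminal epithelial markers had a higher mean for 10 of 10 (0.84), 7 of them without overlap, beside 26.3% of all genes. The wild-type arrays also differed for that list, with a median of -1.02 for replicate 2 minus replicate 1. Brown and beige adipocyte markers had a median of -0.73. The part of any of these in the members' values was not tested, and values of each array are given below for that reason. With knockout replicate 2 as the only knockout array limma called 2 members higher and 19 lower at an adjusted p of 0.05, beside 13.1% and 24.6% of all genes. With knockout replicate 1 alone it called 2 higher and 2 lower, beside 6.73% and 4.99% of all genes. These fits take the spread of the wild-type arrays for the single knockout array. Without either wild-type array no gene passed (smallest adjusted p = 0.571 when replicate 1 was left out and 0.650 when replicate 2 was).

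**Figure D1:**
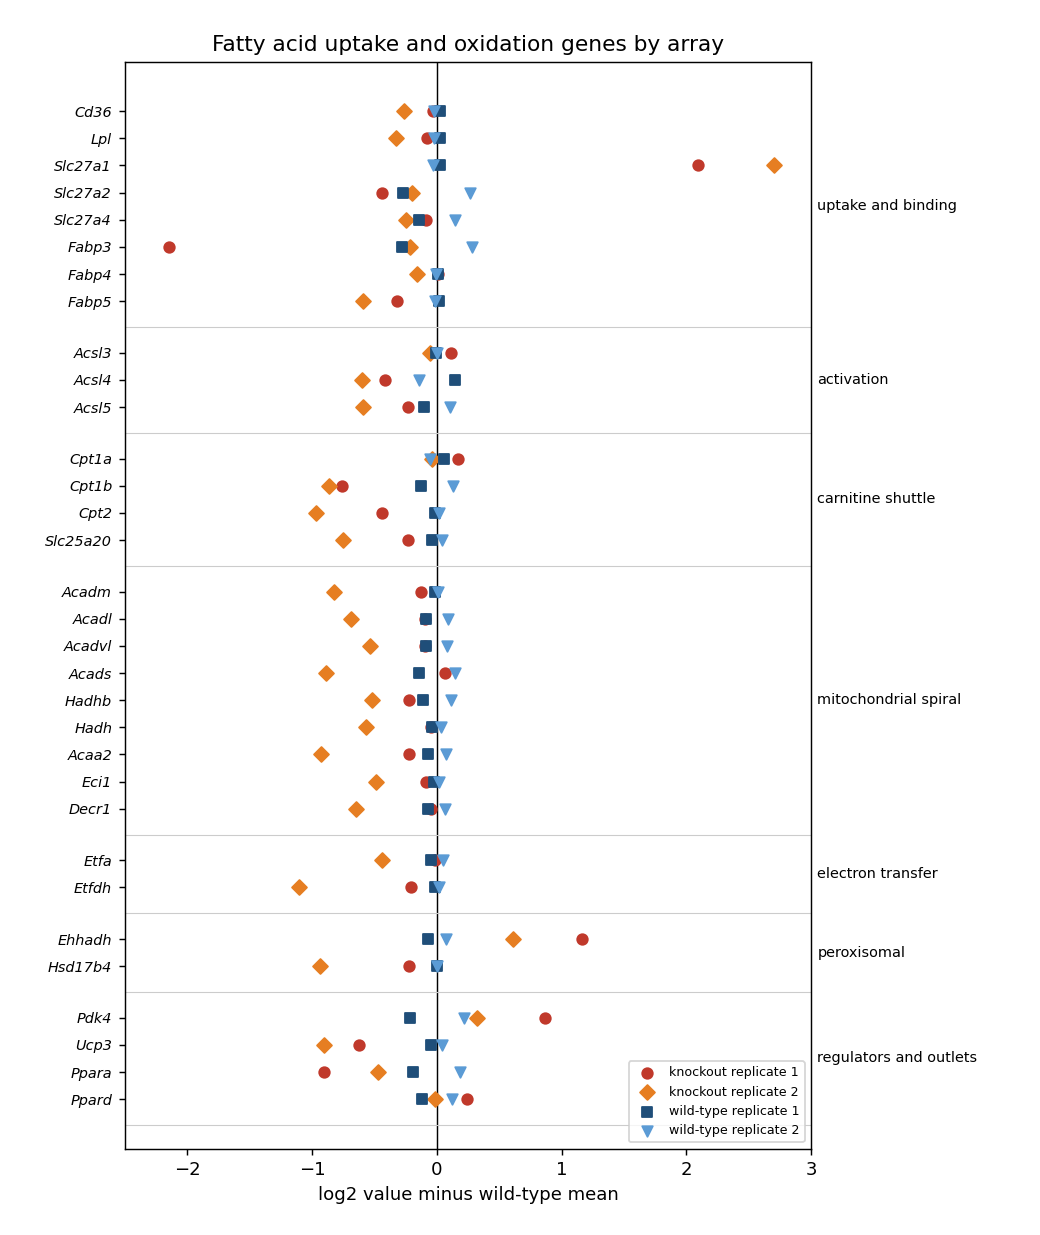
Log2 value of each of the 32 tested members in each array, minus the mean of the 2 wild-type arrays (horizontal axis), grouped by role. Most orange diamonds (knockout replicate 2) lie left of 0, red circles (knockout replicate 1) lie closer to it, and Slc27a1 lies beyond 2 on the right in both.

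**Figure D2:**
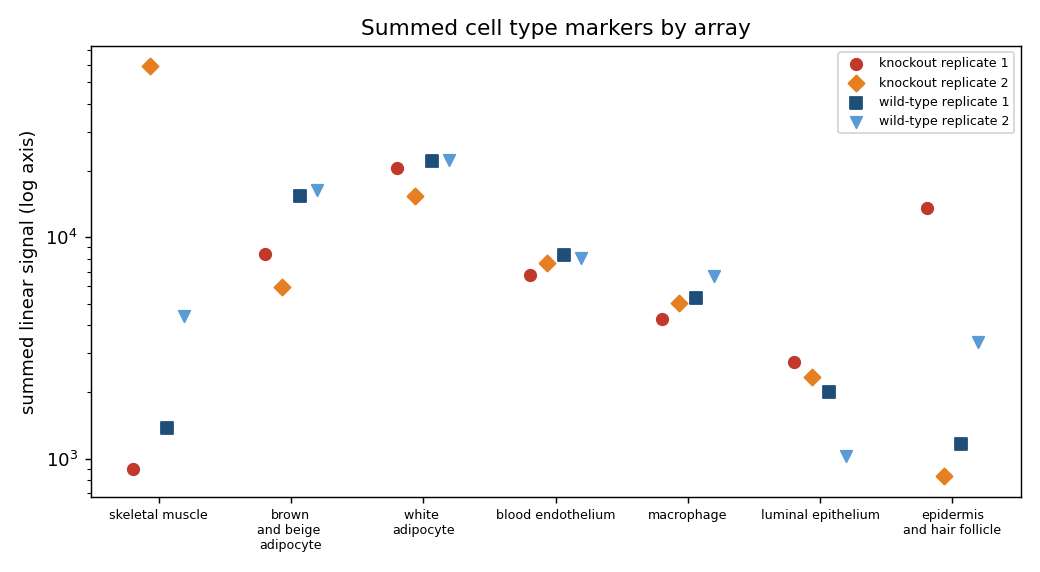
Summed linear signal of 7 lists of cell type markers in each array, on a log axis, in units of array signal. Muscle markers are highest in knockout replicate 2 (59000), skin markers in knockout replicate 1 (13500), and brown and beige adipocyte markers are lower in both knockout arrays than in both wild-type arrays.

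The promoters of 2 members that were higher in the knockout and 2 that were lower are shown first, so that the sequence next to the start can be set beside the values that follow. Each is a RefSeq window of GRCm38.p6 from 250 bases before to 50 after an annotated start, printed on the gene's strand. Capitals mark the GC box (GGGCGG) and the nuclear receptor half-site (AGGTCA) on either strand. Slc27a1, the member with the widest difference, has 3 annotated starts, at chr8:71568621-71568920, chr8:71569347-71569646 and chr8:71570344-71570643, all on the plus strand. Ehhadh, also higher in the knockout, has its window at chr16:21787785-21788084 on the minus strand. Cpt2 (chr4:107923540-107923839, minus strand) and Ucp3 (chr7:100472741-100473040, plus strand) were lower.
Slc27a1 start 1: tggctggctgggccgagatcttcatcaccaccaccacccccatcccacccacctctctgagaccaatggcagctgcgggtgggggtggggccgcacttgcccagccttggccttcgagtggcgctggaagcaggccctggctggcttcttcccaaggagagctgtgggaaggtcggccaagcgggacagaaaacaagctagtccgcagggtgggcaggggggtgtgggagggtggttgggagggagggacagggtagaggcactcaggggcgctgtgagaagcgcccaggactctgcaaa
Slc27a1 start 2: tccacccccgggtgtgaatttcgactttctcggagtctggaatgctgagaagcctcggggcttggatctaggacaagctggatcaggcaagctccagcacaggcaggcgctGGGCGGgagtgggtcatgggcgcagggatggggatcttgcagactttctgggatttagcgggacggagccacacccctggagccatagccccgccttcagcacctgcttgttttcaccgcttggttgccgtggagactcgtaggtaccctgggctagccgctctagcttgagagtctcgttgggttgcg
Slc27a1 start 3: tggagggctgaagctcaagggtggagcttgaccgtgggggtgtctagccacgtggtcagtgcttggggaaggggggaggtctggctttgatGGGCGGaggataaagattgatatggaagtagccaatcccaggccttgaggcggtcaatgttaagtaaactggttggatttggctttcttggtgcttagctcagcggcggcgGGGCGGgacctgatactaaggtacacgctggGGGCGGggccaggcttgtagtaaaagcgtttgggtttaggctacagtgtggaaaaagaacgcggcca
Ehhadh: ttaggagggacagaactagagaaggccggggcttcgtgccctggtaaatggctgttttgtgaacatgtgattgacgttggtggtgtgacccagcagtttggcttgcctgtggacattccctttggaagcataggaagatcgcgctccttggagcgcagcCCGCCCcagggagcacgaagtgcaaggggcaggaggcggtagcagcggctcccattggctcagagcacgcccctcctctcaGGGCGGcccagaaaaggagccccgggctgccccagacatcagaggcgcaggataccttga
Cpt2: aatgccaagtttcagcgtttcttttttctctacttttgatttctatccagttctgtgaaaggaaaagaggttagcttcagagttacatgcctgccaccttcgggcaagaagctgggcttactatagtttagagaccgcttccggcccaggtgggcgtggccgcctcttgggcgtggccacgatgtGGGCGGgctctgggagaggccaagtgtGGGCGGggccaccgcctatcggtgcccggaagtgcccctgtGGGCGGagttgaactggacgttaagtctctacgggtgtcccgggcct
Ucp3: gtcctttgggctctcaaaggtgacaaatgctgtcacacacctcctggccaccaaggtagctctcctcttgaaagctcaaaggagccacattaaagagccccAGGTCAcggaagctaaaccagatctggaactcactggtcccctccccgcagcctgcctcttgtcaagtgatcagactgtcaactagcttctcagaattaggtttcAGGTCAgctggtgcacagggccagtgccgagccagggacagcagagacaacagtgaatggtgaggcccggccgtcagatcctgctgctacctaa

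Of the 36 members 29 had a promoter in the RefSeq table. The GC box was found on either strand in 22 of these 29 (75.9%), against 38.2% of all 27025 genes in the table, and in members that were higher (Slc27a1, Ehhadh) as well as lower (Cpt2, Etfdh). The half-site AGGTCA was found in 6 members (20.7%), namely Cd36, Slc27a2, Cpt1a, Acadm, Acadvl and Ucp3, against 18.1% of all genes. Ucp3 had 2 of them. The PPAR direct repeat AGGTCANAGGTCA, the half-site repeated after 1 base, was found in 0 of 29 members, against 0.0481% of all genes. The element TCAAGGTCA, which overlaps the half-site, and the TATA box TATAAA were also in 0 members, against 0.466% and 15.7% of all genes. CCAAT was in 14 members (48.3%, against 41.1%) and CACGTG in Slc27a1 alone (3.4%, against 8.09%). These matches describe letters in a short window and not binding.

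Among the uptake genes, Slc27a1 had the widest difference, and it was higher in the knockout. It encodes FATP1, a membrane protein of fat and muscle cells that promotes the entry of long-chain fatty acids and joins them to coenzyme A. Its log2 value was 9.85 and 10.46 in knockout replicates 1 and 2, against 7.79 and 7.73 in wild-type replicates 1 and 2. Both knockout arrays thus lay more than 2 above both wild-type arrays. The difference was 2.40 ± 0.23 (SE, n = 2 per group), or 5.27-fold, with a limma adjusted p of 0.101. With 1 array left out it ran from 2.10 to 2.70. Only 134 genes (1.21%) were at least 2-fold higher without overlap, and Slc27a1 was the 1 member among them. Its second probe set, at 9.46 and 9.98 in the knockout arrays and 6.98 and 7.04 in the wild-type arrays, differed by 2.71. Relative to the wild-type mean Slc27a1 was at 2.10 in knockout replicate 1 and 2.70 in knockout replicate 2. Summed muscle markers were 904 and 59000 in these arrays, and their part in the Slc27a1 values was not tested. Slc27a1 lies on chromosome 8, and no member lies on chromosome 14, where Mmp14 is.

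The other FATP genes on the array had values closer together. Slc27a2, a transporter and very-long-chain synthetase best known from liver and kidney, had 5.68 and 5.92 in the knockout arrays and 5.84 and 6.38 in the wild-type arrays, so its groups overlapped. Slc27a4 had 6.66 and 6.50 in the knockout arrays and 6.60 and 6.89 in the wild-type arrays, also with overlap. Slc27a3 had 5.01 and 4.77 in the knockout arrays and 4.80 and 4.83 in the wild-type arrays, near the limit of 4.94 where differences are compressed.

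The 2 genes that stand at the entry of lipoprotein fat differed little in their brightest probe sets. Lpl, which encodes lipoprotein lipase, differed by -0.20 ± 0.12 and Cd36, which encodes a scavenger receptor that binds long-chain fatty acids, by -0.15 ± 0.12 (SE, n = 2 per group). The groups did not overlap in either gene, but they nearly met: knockout replicate 1 and the nearest wild-type array were at 12.46 and 12.47 for Cd36 and at 13.11 and 13.17 for Lpl. Both genes were bright, with Lpl between 12.87 and 13.22 in a table whose highest value is 13.68, so differences may be understated there. Dimmer probe sets gave -0.19 and -0.40 for Cd36 and -0.25 for Lpl.

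The 3 cytoplasmic carriers each behaved in their own way. Fabp4, the carrier of fat cells, had 13.48 and 13.30 in the knockout arrays and 13.47 and 13.46 in the wild-type arrays, with overlap, and a dimmer probe set differed by 0.30 in the other direction. Fabp5, a carrier found in skin, fat and immune cells, had 12.46 and 12.18 in the knockout arrays and 12.79 and 12.76 in the wild-type arrays. Its groups were separate, with a difference of -0.45 ± 0.13 (SE, n = 2 per group, limma adjusted p = 0.190), and a second probe set gave -0.74. Of the 11 epidermis and hair follicle markers tested, all 11 were above both wild-type arrays in knockout replicate 1 and 1 was in knockout replicate 2, while Fabp5 was lower in both. Among all 11078 genes, 4784 and 4289 were above both wild-type arrays in knockout replicates 1 and 2. All 11 macrophage markers tested had a lower mean in the knockout (median -0.38). Of these, 10 and 6 were below both wild-type arrays in knockout replicates 1 and 2, beside 43.7% and 50.8% of all genes. The part of either cell type in the Fabp5 values was not tested.

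Fabp3 was the member that set the 2 knockout arrays furthest apart. It encodes the carrier of heart and skeletal muscle, which brown fat also makes. Values were 7.72 and 9.65 in knockout replicates 1 and 2, against 9.58 and 10.15 in wild-type replicates 1 and 2. Relative to the wild-type mean knockout replicate 1 was at -2.14, and knockout replicate 2 lay between the 2 wild-type arrays. With a difference of -1.18 ± 0.72 (SE, n = 2 per group) its limma adjusted p was 0.400 with all arrays. The difference was -0.22 without knockout replicate 1 and -2.14 without knockout replicate 2. Summed muscle markers were 904 and 59000 in the same 2 arrays. Summed brown and beige adipocyte markers were 8420 and 5960 there, against 15400 and 16300 in the wild-type arrays. What part either list had in the Fabp3 values was not tested.

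**Figure D3:**
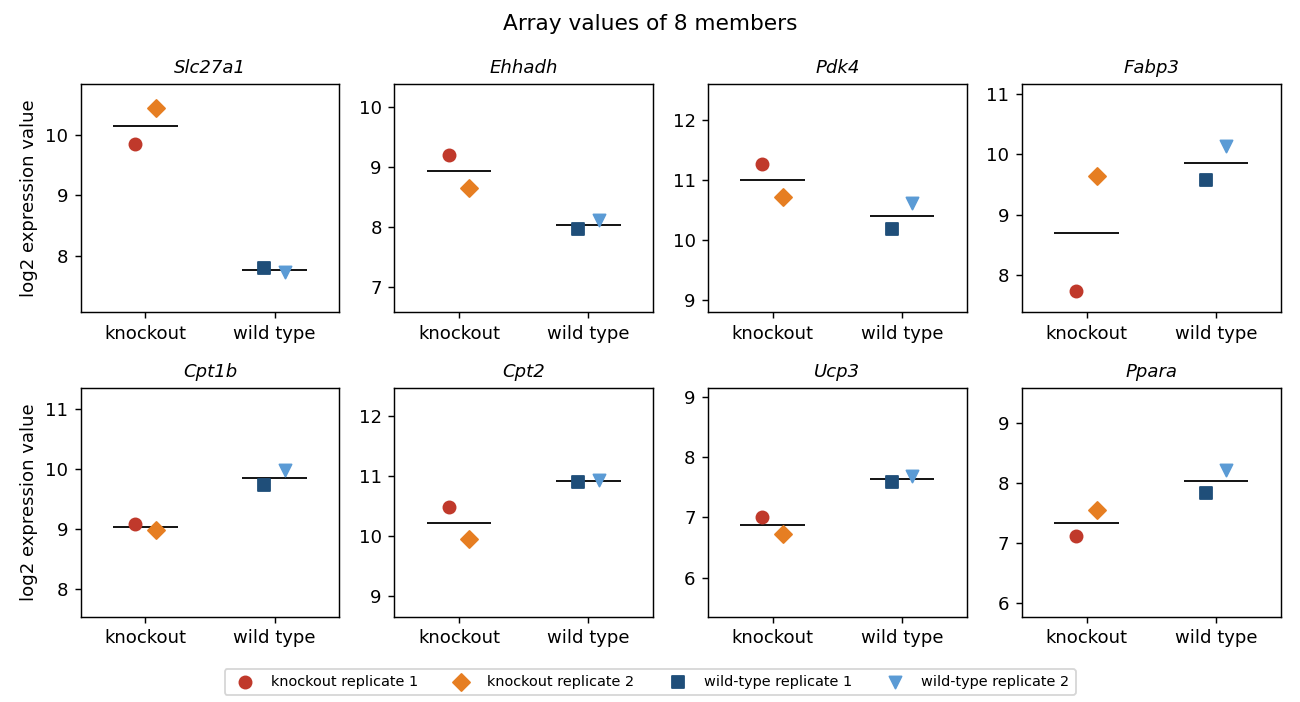
Log2 expression value of 8 members in each knockout and wild-type array, with horizontal lines at the mean of each group and the same height of axis in every panel. Slc27a1, Ehhadh and Pdk4 are higher in both knockout arrays, Cpt1b, Cpt2, Ucp3 and Ppara are lower in both, and Fabp3 is low in knockout replicate 1 only.

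Of the acyl-CoA synthetases, which activate fatty acids, Acsl4 and Acsl5 were lower in the knockout and Acsl3 was level. Acsl4, which prefers arachidonic acid, had 7.36 and 7.18 in the knockout arrays and 7.92 and 7.63 in the wild-type arrays, without overlap. The difference was -0.51 ± 0.15 (SE, n = 2 per group, limma adjusted p = 0.192), and 2 dimmer probe sets gave -0.26 and -0.05. Acsl5, a synthetase of mitochondria and the endoplasmic reticulum, differed by -0.41 ± 0.17, also without overlap. Acsl3, found on lipid droplets, differed by 0.03, and its sign changed without knockout replicate 1.

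The carnitine shuttle split between its isoforms. CPT1 attaches carnitine to long-chain acyl groups at the outer mitochondrial membrane, with Cpt1a encoding the liver form and Cpt1b the form of muscle and brown fat. Cpt1b had 9.09 and 8.99 in the knockout arrays, against 9.73 and 9.98 in the wild-type arrays. Relative to the wild-type mean the knockout arrays were close to each other, at -0.76 and -0.87, and the difference of -0.81 ± 0.13 (SE, n = 2 per group, limma adjusted p = 0.118) had the smallest p among the members that were lower. With 1 array left out that difference ran from -0.94 to -0.69. The lowest Cpt1b value was in knockout replicate 2, the array with the highest muscle markers and the lowest summed brown and beige adipocyte markers. What part either list had in the Cpt1b values was not tested. Cpt1a had 8.73 and 8.53 in the knockout arrays and 8.62 and 8.50 in the wild-type arrays, with overlap and a difference of 0.07 ± 0.12.

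Further along the shuttle, the carrier and the inner enzyme were also lower. Cpt2, which frees the acyl group again inside the mitochondrion, had 10.48 and 9.95 in the knockout arrays and 10.90 and 10.93 in the wild-type arrays. Neither knockout array reached the wild-type range, and the difference was -0.70 ± 0.21 (SE, n = 2 per group, limma adjusted p = 0.192). Slc25a20, the carnitine and acylcarnitine carrier of the inner membrane, differed by -0.49 ± 0.21, and its second probe set by -0.80. Summed brown and beige adipocyte markers were 8420 and 5960 in the knockout arrays and 15400 and 16300 in the wild-type arrays. Of the 11 such markers tested 7 were lower in both knockout arrays, among them Ucp1 and Cidea, beside 32.5% of all genes. Lhx8 was higher in both (0.81), and the other 3 overlapped. What part these markers had in the shuttle values was not tested.

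All 9 tested genes of the mitochondrial spiral had a lower mean in the knockout, by -0.29 to -0.57, and 7 of them were lower in both knockout arrays, beside 32.5% of all genes. In some of these the groups nearly met. Knockout replicate 1 and the nearest wild-type array were at 11.78 and 11.79 for Acadl, 11.17 and 11.18 for Acadvl, and 12.72 and 12.73 for Hadh. The subgroup's median was -0.10 for knockout replicate 1 and -0.65 for knockout replicate 2. All 9 values of knockout replicate 2 lay below those of knockout replicate 1, beside 60.2% of all genes. The subgroup's smallest p belonged to Hadhb, the beta subunit of the trifunctional protein, with 11.77 and 11.47 in the knockout arrays and 11.88 and 12.10 in the wild-type arrays (difference -0.37 ± 0.16, SE, n = 2 per group, limma adjusted p = 0.283). A dimmer Hadhb probe set differed by 0.14 in the other direction. Acaa2, the thiolase that closes the spiral, had 11.85 and 11.15 in the knockout arrays and 12.01 and 12.15 in the wild-type arrays, a difference of -0.57 ± 0.27, and its other probe sets gave -0.64 and -0.995.

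The acyl-CoA dehydrogenases, which open the spiral for different chain lengths, followed the same order of arrays. Acadm, for medium chains, had 12.15 and 11.44 in the knockout arrays and 12.26 and 12.28 in the wild-type arrays (-0.47 ± 0.27, SE, n = 2 per group). Acadl and Acadvl, for long and very long chains, differed by -0.39 ± 0.24 and -0.32 ± 0.19. Acads, for short chains, had 9.18 and 8.22 in the knockout arrays and 8.97 and 9.25 in the wild-type arrays, so knockout replicate 1 lay inside the wild-type range. The remaining spiral genes were Hadh (-0.31), a dehydrogenase of short 3-hydroxy chains, Eci1 (-0.29) and Decr1 (-0.34), both needed for unsaturated chains. A dimmer Decr1 probe set gave -0.79.

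Electrons from the spiral pass through the electron transfer flavoprotein and its dehydrogenase. Etfdh, the dehydrogenase, had 10.93 and 10.03 in the knockout arrays and 11.12 and 11.15 in the wild-type arrays. Relative to the wild-type mean knockout replicate 2 was at -1.10 and knockout replicate 1 at -0.20, with a difference of -0.65 ± 0.33 (SE, n = 2 per group, limma adjusted p = 0.336). Etfa, a subunit of the flavoprotein, differed by -0.22 ± 0.18 and overlapped.

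**Figure D4:**
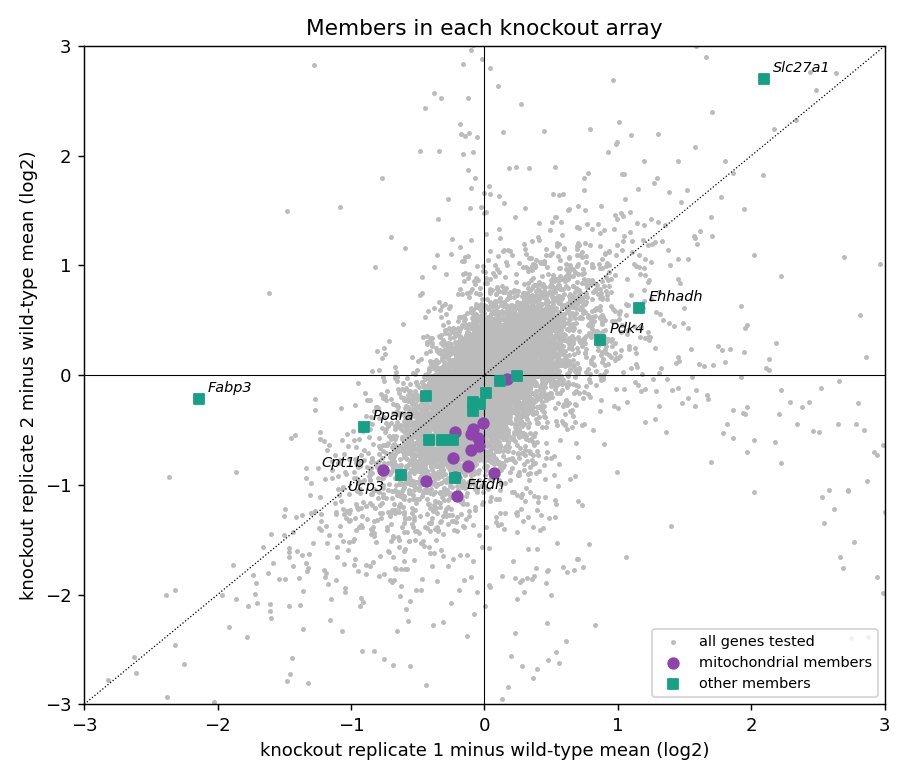
Each point is a gene, plotted by its log2 difference from the mean of the wild-type arrays. The horizontal axis is knockout replicate 1 and the vertical axis knockout replicate 2, with a dotted line where both are equal. Mitochondrial members (purple) lie below the dotted line, and Slc27a1 lies at 2.10 and 2.70. 115 of all genes fall outside the plotted range of 3 either way.

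The 2 peroxisomal members went opposite ways. Ehhadh encodes the bifunctional enzyme of the peroxisomal spiral and is a classical PPAR-alpha target in rodent liver. It had 9.20 and 8.65 in the knockout arrays, against 7.97 and 8.12 in the wild-type arrays, without overlap, and was higher by 0.88 ± 0.22 (SE, n = 2 per group, 1.85-fold, limma adjusted p = 0.165). With 1 array left out that difference ran from 0.61 to 1.16. Hsd17b4, the other bifunctional enzyme, which handles branched chains and bile acid precursors, had 9.59 and 8.87 in the knockout arrays and 9.81 and 9.81 in the wild-type arrays. The difference was -0.58 ± 0.27 (adjusted p = 0.305), with -0.94 in knockout replicate 2 and -0.22 in knockout replicate 1.

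Among the regulators and outlets, Pdk4 was higher and Ucp3 and Ppara were lower. Pdk4 encodes a kinase that shuts pyruvate out of oxidation when fatty acids are burned. It had 11.27 and 10.72 in the knockout arrays and 10.19 and 10.62 in the wild-type arrays, a difference of 0.59 ± 0.26 (SE, n = 2 per group, limma adjusted p = 0.289). The groups did not overlap, but knockout replicate 2 and wild-type replicate 2 lay close together. Ucp3, a mitochondrial carrier of muscle and brown fat, had 7.01 and 6.73 in the knockout arrays, against 7.59 and 7.68 in the wild-type arrays. That is a difference of -0.77 ± 0.14 (limma adjusted p = 0.124), which ran from -0.91 to -0.63 with 1 array left out. A dimmer Ucp3 probe set gave -0.23. The lowest Ucp3 value was in knockout replicate 2, the array with the highest muscle markers and the lowest summed brown and beige adipocyte markers. These sums were 8420 and 5960 in the knockout arrays and 15400 and 16300 in the wild-type arrays. What part either list had in the Ucp3 values was not tested.

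Ppara, the fatty acid receptor that drives oxidation genes, had 7.11 and 7.55 in the knockout arrays and 7.83 and 8.21 in the wild-type arrays. The groups were separate, with a difference of -0.69 ± 0.22 (SE, n = 2 per group, limma adjusted p = 0.208), and 2 dimmer probe sets gave -0.55 and -0.30. Here knockout replicate 1 was the lower of the pair, unlike most members. Ppard, the widely expressed relative, differed by 0.12 ± 0.15 and overlapped.

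Genes of the same pathways outside the membership did not share the downward shift as a whole. Among other mitochondrial oxidation genes 10 of 16 tested had a higher mean in the knockout, among other peroxisomal genes 12 of 19, and among other regulators 11 of 20, with medians of 0.11, 0.02 and 0.04. Other uptake genes were the exception, with 10 of 13 lower in both knockout arrays, beside 32.5% of all genes, and a median of -0.36. None of these genes passed at an adjusted p of 0.05.

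In that uptake list Angptl8, a circulating inhibitor of lipoprotein lipase made by fat and liver, had 5.39 and 5.02 in the knockout arrays and 7.24 and 6.96 in the wild-type arrays (-1.89 ± 0.19, SE, n = 2 per group), with knockout values close to the brightness limit. Vldlr, a receptor that docks triglyceride-rich lipoproteins, had 8.31 and 7.76 in the knockout arrays and 9.46 and 9.37 in the wild-type arrays (-1.38 ± 0.22). In each gene both knockout arrays lay more than 1 below both wild-type arrays. Fabp7 (-0.83 ± 0.16) and Acsf3, a synthetase of mitochondria (-0.75 ± 0.31), were lower as well, and the lipoprotein receptor gene Lrp1 was higher (0.88 ± 0.24). Both knockout values of Fabp7 lay below the brightness limit of 4.94, where differences are compressed, so the size of its difference is uncertain. Fabp7 is also counted among the other uptake genes that were lower in both knockout arrays.

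The lists of oxidation genes held differences in both directions. Acacb encodes the acetyl-CoA carboxylase whose product, malonyl-CoA, inhibits CPT1. It had 7.90 and 8.85 in the knockout arrays and 6.92 and 7.39 in the wild-type arrays, a difference of 1.22 ± 0.39 (SE, n = 2 per group). Hsd17b10 (0.39 ± 0.11) and Acad11 (0.58 ± 0.33) were higher, and Acad8 (-0.67 ± 0.25) and the ketone-using enzyme gene Oxct1 (-0.55 ± 0.22) lower, each without overlap. On the peroxisomal side Cat, the gene of catalase, which breaks down the hydrogen peroxide made there, was higher without overlap (0.41 ± 0.09). Pex19 (0.26), the import receptor gene Pex5 (0.27) and the thiolase gene Acaa1b (0.30) were also higher, and Abcd3, a transporter of the peroxisomal membrane, was lower (-0.57 ± 0.20).

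Of the other regulators the kinase gene Pdk1 had 9.51 and 9.46 in the knockout arrays and 8.97 and 9.01 in the wild-type arrays (0.50 ± 0.09, SE, n = 2 per group). The estrogen-related receptors, which drive mitochondrial genes, were lower, with Esrra at 7.99 and 7.86 in the knockout arrays and 8.29 and 8.34 in the wild-type arrays (-0.39 ± 0.10) and Esrrg at -0.42 ± 0.10. Rxrb (0.28), the retinoid receptor partner of the PPARs, and the corepressor gene Nrip1 (0.48) were higher. Adjusted limma p-values of the genes named from these 4 lists were between 0.101 and 0.373.

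The targeted gene was low in both knockout arrays. Mmp14 had 5.83 and 5.68 in the knockout arrays and 8.92 and 8.73 in the wild-type arrays in its brighter probe set, a difference of -3.07, and a dimmer probe set differed by -1.67. Where these probes lie relative to the deletion is not given in the sources used here. Array medians lay between 4.92 and 4.98. Tested genes differed by a median of 0.214 between the 2 knockout arrays and of 0.0785 between the 2 wild-type arrays. In every array 5 of 7 white adipocyte markers and 9 of 11 luminal epithelial markers reached the brightness limit. So did 12 of 12 blood endothelial and 7 of 17 skeletal muscle markers. Of all 17097 genes 11078 reached the limit on their mean, so these counts cannot identify the tissue. Among the white adipocyte markers Lep, the leptin gene, had 6.95 and 4.48 in the knockout arrays and 10.72 and 10.72 in the wild-type arrays (-5.00 ± 0.89, SE, n = 2 per group). Sncg had 11.13 and 7.87 in the knockout arrays and 11.88 and 11.98 in the wild-type arrays, whereas Adipoq overlapped (0.04). Agt was higher without overlap (1.33 ± 0.12). Of the 6 white adipocyte markers tested 3 had a higher mean and 3 a lower mean in the knockout, with a median of -0.08.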

How the data were processed

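RNA of 4 mammary gland samples was hybridised to 1 Affymetrix array each after 3-prime amplification and biotin labelling, per the labels' protocols. The deposited values are log2 expression values, summarised per probe set with RMA in affy, per the submitters' processing notes, which give no version. The log2 scale was read from the values. RMA equalises the arrays, so a shift common to most genes is not visible. The number of arrays limits the precision.

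Of 45141 probe sets 28898 carried 1 gene in GEO's platform annotation, 551 several and 15692 none. Only the first were named, and 28689 matched a gene identifier of RefSeq's table for GRCm38.p6. The brightest probe set stood for each of 17097 genes, and the 11078 whose mean reached 4.94, the median of all probe sets, were tested with limma 3.58.1 in R 4.3.3 (lmFit, eBayes, no covariate, Benjamini-Hochberg adjustment over all of them). The test was checked on simulated data. Members, lists and marker genes were chosen with earlier results of these data known.

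Values of every array were given for members that differed by at least 0.5 without overlap, the smallest p of each subgroup, members whose knockout arrays lay more than 1 apart, and the Cpt1 and Fabp isoforms. Up to 5 genes of smallest p were named per further list, and genes given beyond this (Acadm, Acads and the FATP genes) were chosen after their values were seen. Alternatives were other brightness filters, probe set choices, scalings, variance priors, array weights, a replicate block and leaving out each array. Replicate numbers are shared by the groups in the labels, but deviations of same-numbered arrays correlated at r = -0.0885 across genes, so the numbers were not taken as pairs. Where nothing says how animals relate to samples, p-values measure only the spread between these samples.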

Additional observations from a re-analysis of the deposited data

How the results depend on the processing

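No gene passed the adjusted threshold under any alternative that kept all 4 arrays, and the smallest adjusted p there ran from 0.0610 with a robust prior to 0.207 with the replicate number as a block. That replicate block left 0 genes higher and 0 lower and changed no other call. Leaving out 1 array moved these counts between 0 and 1455 higher and between 0 and 2725 lower genes. Without knockout replicate 1 there were 1455 higher and 2725 lower, including 2 and 19 members. Without knockout replicate 2 there were 746 and 553, including 2 members higher (Slc27a1 and Ehhadh) and 2 lower (Fabp3 and Ucp3). Both fits take the spread of the wild-type arrays for the single knockout array that is left. The median over members was -0.36 and stayed below 0 under every alternative run, between -0.53 without knockout replicate 1 and -0.10 without knockout replicate 2. Members higher in both knockout arrays numbered 3, beside 26.3% of all genes. They numbered 5 with the mean of probe sets (beside 25.8%), 5 after cyclic loess (28%) and 6 after quantile normalisation (27.6%). With 1 array left out members higher ran from 3 to 7, beside 32% to 43.2% of all genes. Members lower, 19 with all arrays (beside 32.5%), then ran from 19 to 25, beside 38.4% to 50.8%. With all 4 arrays members lower numbered 15 after cyclic loess (beside 31.2%) and 18 after quantile normalisation (31%). They numbered 18 without the _s_at and _x_at probe sets (32.8%). Of the single members, Fabp4 changed sign with the mean of probe sets (0.0521), cyclic loess (0.0321) and quantile normalisation (0.0333), and ran from -0.162 to 0.0125 with 1 array left out. Acsl3 changed sign with the mean of probe sets (-0.0190) and ran from -0.0515 to 0.113 with 1 array left out. The ranges with 1 array left out also crossed 0 for Cpt1a (-0.0349 to 0.167), Acads (-0.891 to 0.0682) and Ppard (-0.0109 to 0.244). The cause of these shifts was not tested. Signals near the brightness limit, as for Slc27a3, limit what can be seen.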
